A study of Mus musculus with 4 samples.

Results

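The cells described here are GABAergic neurons of the mouse bed nucleus of the stria terminalis (BNST) that carried transcripts of Tshz1, Foxp2 or Cpne4. They were chosen by their own measured counts of unique molecular identifiers (UMIs, each standing for 1 captured transcript). Barcodes entered if they had 400 or more detected genes and no more than 10% mitochondrial UMIs. It was called a neuron when Snap25, Syt1, Stmn2, Snhg11 and Meg3 together made up at least 0.6% of its UMIs, and GABAergic with at least 1 UMI of Gad1, Gad2 or Slc32a1. A member then needed at least 2 UMIs of Tshz1, Foxp2 and Cpne4 summed, fewer than 2 of Prkcd, fewer than 2 of Ppp1r1b and Crym summed, and none of Slc17a8. These conditions gave 233 members among 2283 GABAergic neurons and 4239 kept barcodes. Of 300 GABAergic neurons with at least 2 UMIs of the 3 genes, 67 were left out: 50 met the exclusion for Ppp1r1b and Crym, 13 that for Slc17a8 and 5 that for Prkcd, with overlap.

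The study profiled BNST tissue punches with Drop-seq, which captures single dissociated cells with barcoded beads in droplets and counts the 3′ ends of their mRNAs. The only group was wildtype C57BL/6J males with no treatment and no age given, and the tissue of 6 mice was pooled in each of the 4 libraries. No condition was compared, so each comparison below sets members against other cells of the same libraries. The p-values for genes set the differences within libraries against a spread that the fit partly shares over genes. For a single gene they and the SE can understate the spread over the 4 pools. The title of the series names prepronociceptin neurons, and the genes of that peptide (Pnoc) and of its receptor (Oprl1) are reported for the members as well.

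Tshz1 and Foxp2 encode DNA-binding proteins, a teashirt zinc finger factor and a forkhead factor. Cpne4 encodes a copine, a calcium-dependent membrane-binding protein, Mylk a myosin light chain kinase and Egr4 an activity-induced zinc finger factor. In the forebrain, Tshz1 and Foxp2 together are known to mark intercalated cells of the amygdala and a subset of striatal projection neurons, GABAergic cells that arise in the lateral ganglionic eminence. The BNST belongs to the extended amygdala, and most of its neurons are GABAergic and are often told apart by their neuropeptides.

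The tables listed 20136 genes and 10200 barcodes with 14018026 UMIs, between 2640399 and 5652342 per library, and kept barcodes had median depths between 1511 and 2509 UMIs. Of the barcode strings, 11 occurred in more than 1 library, and no member carried one of them. Among the members, 22 barcodes ended in an undetermined base, 4 were called doublets by Scrublet and 2 had at least 2% oligodendrocyte UMIs. These cells stayed in the class.

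Members made up 11.4% of the GABAergic neurons in library 1 (82 of 721, exact 95% binomial interval 9.15 to 13.9%) and 7.64% in library 2 (36 of 471, 5.41 to 10.4%). They made up 12.5% in library 3 (50 of 401, 9.40 to 16.1%) and 9.42% in library 4 (65 of 690, 7.35 to 11.8%). The mean was 10.2% ± 2.13 (SD, n = 4), a share that the UMI minimum sets. Library 2 was the lowest and library 3 the highest, and their intervals overlapped. Of the members, 105 had exactly 2 UMIs of the 3 genes, 48 had 3 and 80 had 4 or more, up to 16. Just outside the limit stood 272 GABAergic neurons with exactly 1 UMI that passed the exclusions. With a minimum of 3 UMIs the mean share was 5.71% ± 2.23 (SD, n = 4). Intervals and limits given for counts here cover counting error only, and those on UMIs treat the UMIs of 1 cell as separate events.

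Tshz1 was detected in 101 members, Foxp2 in 136 and Cpne4 in 119, and 17 members held all 3. A single gene supplied the UMIs of 127 members: Foxp2 in 57, Cpne4 in 48 and Tshz1 in 22. Levels are UMIs of the gene per 1000000 UMIs of the class in a library (CPM). Foxp2 stood at 222, 321, 505 and 483 CPM in the members of libraries 1 to 4, against 25.1, 15.9, 26.6 and 33.2 CPM in all other GABAergic neurons. Tshz1 stood at 126, 158, 211 and 299 CPM against 19.7, 14.1, 17.8 and 21.6 CPM. Cpne4 stood at 198, 221, 179 and 299 CPM against 23.2, 27.7, 23.4 and 33.2 CPM. These differences follow from the choice of members and carry no test. Of the markers that did not enter the rule, Mylk was at 23.2 ± 16.4 CPM in members against 3.34 ± 1.07 CPM in other GABAergic neurons (SD, n = 4), and Egr4 at 13.9 ± 15.9 against 24.3 ± 11.5 CPM. Egr4 stood above the other GABAergic neurons in the members of library 4 and below them in the other 3 libraries, so it did not mark the class.

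Oligodendrocyte barcodes give the level of the same genes in cells that are not neurons. These kept barcodes fell under the neuron limit and had at least 2% of their UMIs from 10 oligodendrocyte markers. There, Foxp2 was at 1.57 ± 1.82 CPM (SD, n = 4) and Cpne4 had no UMI in 945 barcodes, which allows up to 0.317% of them to carry a UMI at this depth (3 counts of the total). Tshz1 was at 50.6 ± 7.23 CPM, with a UMI in 8.04% of oligodendrocyte barcodes at a median depth of 1391 UMIs. That level was above the 18.3 ± 3.19 CPM of the other GABAergic neurons, of which 6.00% had a Tshz1 UMI at a median depth of 3337.5 UMIs. The part of RNA from other cells in the Tshz1 UMIs of the members was not tested.

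To see whether members resembled each other in genes that had not chosen them, all GABAergic neurons were clustered without the 15 genes of the rule. Of the 15 clusters, cluster 14 held more members than any other, 69 of 233, among its 110 cells. Its leading genes were Tshz1, Foxp2, Mylk, Cpne4, Nfib, Lypd1, Col6a1, Mef2c, Erbb4 and Rasgrp1, with Tshz1 at 812 CPM, Foxp2 at 955 CPM and Cpne4 at 462 CPM. In the other clusters Tshz1 reached at most 60.5 CPM, Foxp2 120.0 CPM and Cpne4 67.7 CPM. Cluster 14 held 15.9, 38.9, 28 and 43.1% of the members of libraries 1 to 4, against 2.03, 1.15, 1.71 and 2.72% of the other GABAergic neurons. The difference was 29.6 ± 12.1 percentage points (SD, n = 4). The cluster was taken because it held the most members, so the direction of this difference follows from that choice, and it is given with no test. Against the label of Tshz1 and Foxp2 neurons, the other 164 of the 233 cells lay in clusters led by other genes, so the class is called here by its rule.

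**Figure D1:**
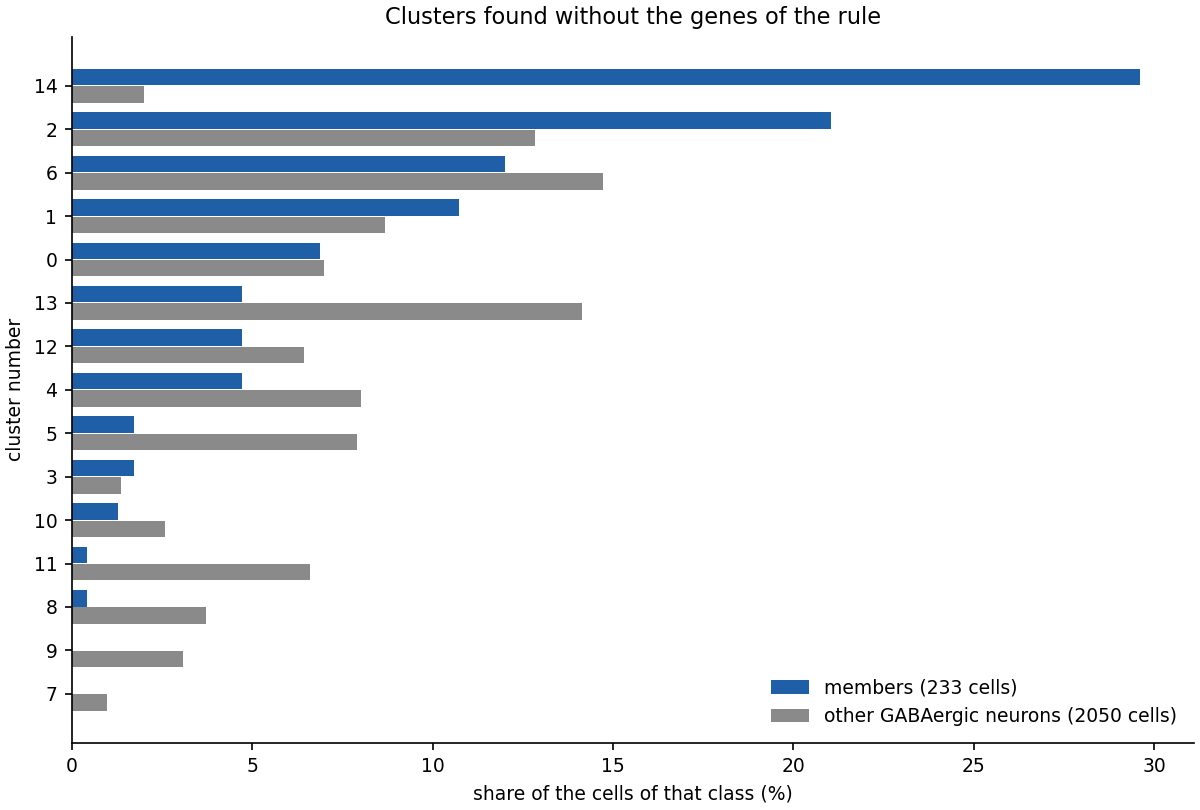
Share (horizontal, %) of the 233 members and of the 2050 other GABAergic neurons in each of the 15 clusters found without the genes of the rule, over the 4 libraries together, with the cluster number on the vertical axis. Cluster 14 holds 29.6% of the members and 2% of the others, and the remaining members spread over 12 of the other clusters.

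Outside cluster 14, the members were most numerous in cluster 2 (49 cells), led by Cck, the gene of the peptide cholecystokinin, and by Greb1. Another 28 lay in cluster 6, led by Nrgn and Six3, 25 in cluster 1, led by Lhx8 and Rorb, and 16 in cluster 0, led by Gal and Tac2. Members made up 15.7% of the cells of cluster 2, 8.48% of cluster 6, 12.3% of cluster 1 and 10.1% of cluster 0. Their mean share of all GABAergic neurons, cluster 14 included, was 10.2%. In cluster 2 the members had a median of 7980 UMIs and the other cells 4716. The part of depth in these shares was not tested. In cluster 2, 30 of the 49 members carried Cpne4, 16 carried Tshz1 and 16 carried Foxp2. In cluster 4, led by Slc17a8, 10 of the 11 members carried Foxp2. Clusters 7 and 9, led by Vipr2 and by Prkcd, held no member. The exclusions of the rule for Prkcd and Slc17a8 by themselves limit the members in the clusters led by those 2 genes.

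Members in cluster 14 mostly carried more than 1 of the rule genes. All 17 members with UMIs of Tshz1, Foxp2 and Cpne4 were in it (exact 95% binomial interval 80.5 to 100%). So were 23 of the 35 with Tshz1 and Foxp2 only (65.7%, 47.8 to 80.9%), 10 of the 27 with Foxp2 and Cpne4 (37.0%, 19.4 to 57.6%) and 6 of the 27 with Tshz1 and Cpne4 (22.2%, 8.62 to 42.3%). Of the 127 members with a single gene, 13 were in it (10.2%, 5.56 to 16.9%). By number of UMIs, 14 of the 105 members with exactly 2 were in the cluster (13.3%), and 18 of the 34 with 6 or more (52.9%).

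Depth differed between the members in and outside the cluster. The 69 in it had a median of 1555 UMIs, with a median of 26.7 UMIs of the 3 genes per 10000. The other 164 had a median of 5338 UMIs and of 5.49 UMIs of the 3 genes per 10000. Of the members outside, 91 had exactly 2 UMIs of the 3 genes and 86 had more than 5000 UMIs in all, while 1 member in the cluster had more than 5000. For all members the median depth was 6307.5, 3131.5, 3886 and 2430 UMIs in libraries 1 to 4, against 4325, 3759, 2845 and 2570 UMIs for other GABAergic neurons. It was higher for members in 2 of 4 libraries, and the mean log2 ratio was 0.16 ± 0.40 (SD, n = 4, p = 0.5 by an exact permutation of the signs, two-sided, with 0.125 the smallest p that 4 libraries allow). The part of depth in the choice of members was not tested.

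**Figure D2:**
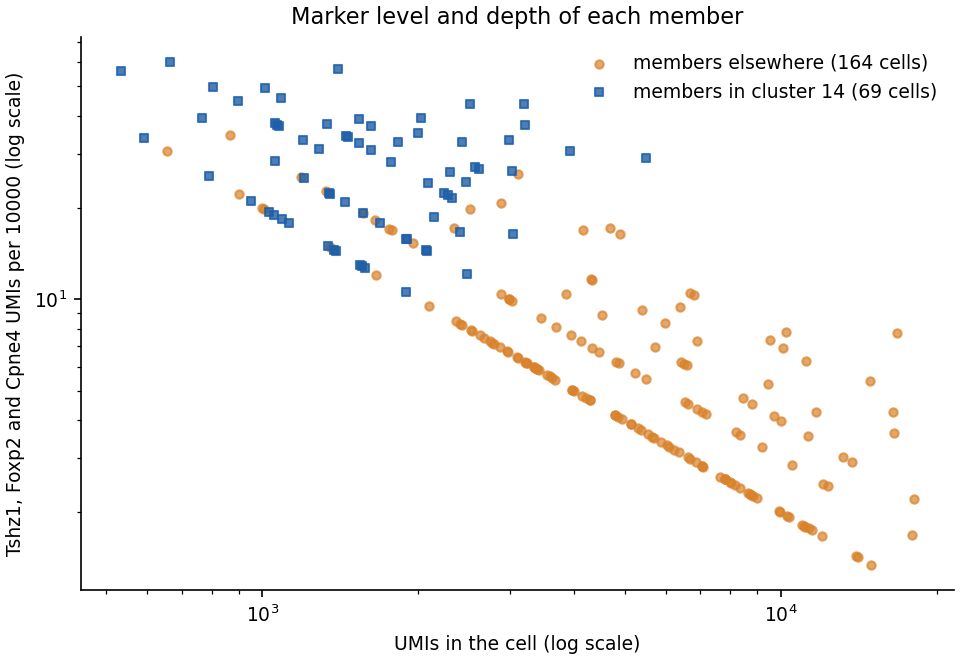
UMIs of Tshz1, Foxp2 and Cpne4 per 10000 UMIs (vertical, log scale) against all UMIs of the cell (horizontal, log scale), with 1 symbol for each of the 233 members. Members in cluster 14 (blue squares) lie between 10.5 and 60.2 per 10000, and members elsewhere (orange) reach down to 1.34 per 10000.

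The remaining 41 cells of cluster 14 were not members. The exclusions left out 18 of them, 9 had a single UMI of the 3 genes and 14 had none. Summed per library, these 41 cells had Tshz1 at 604 ± 272 CPM, Foxp2 at 706 ± 439 CPM and Ppp1r1b at 729 ± 395 CPM (SD, n = 4). Ppp1r1b encodes DARPP-32, a phosphoprotein that dopamine regulates in striatal projection neurons. The exclusions thus removed part of the cluster that the genes of the rule led. Cluster 14 as a whole was 4.79% ± 1.29 of GABAergic neurons (SD, n = 4).

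In each library the members of cluster 14 had higher levels of the marker genes than the other members, with the smallest ratio for Cpne4 in library 3 and no Egr4 UMI on either side in library 2. Tshz1 was at 743, 818, 1359 and 835 CPM in libraries 1 to 4 against 90.2, 58.0, 58.5 and 148 CPM in members elsewhere. Foxp2 was at 844, 1059, 1427 and 1145 CPM against 186, 210.2, 383 and 296 CPM. Cpne4 was at 1046, 818, 238 and 644 CPM against 149, 130.5, 171 and 202 CPM. Mylk had 19 of its 23 member UMIs in the 69 cells of the cluster, at 169, 96.3, 102 and 215 CPM, and 4 in the 164 other members. That is a 39.8-fold ratio of pooled levels with an exact 95% counting interval of 13.2 to 160.7. Since the clusters were made from the 2000 most variable of the other genes in the same cells, these values and those that follow for cluster 14 are a description with no test.

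**Figure D3:**
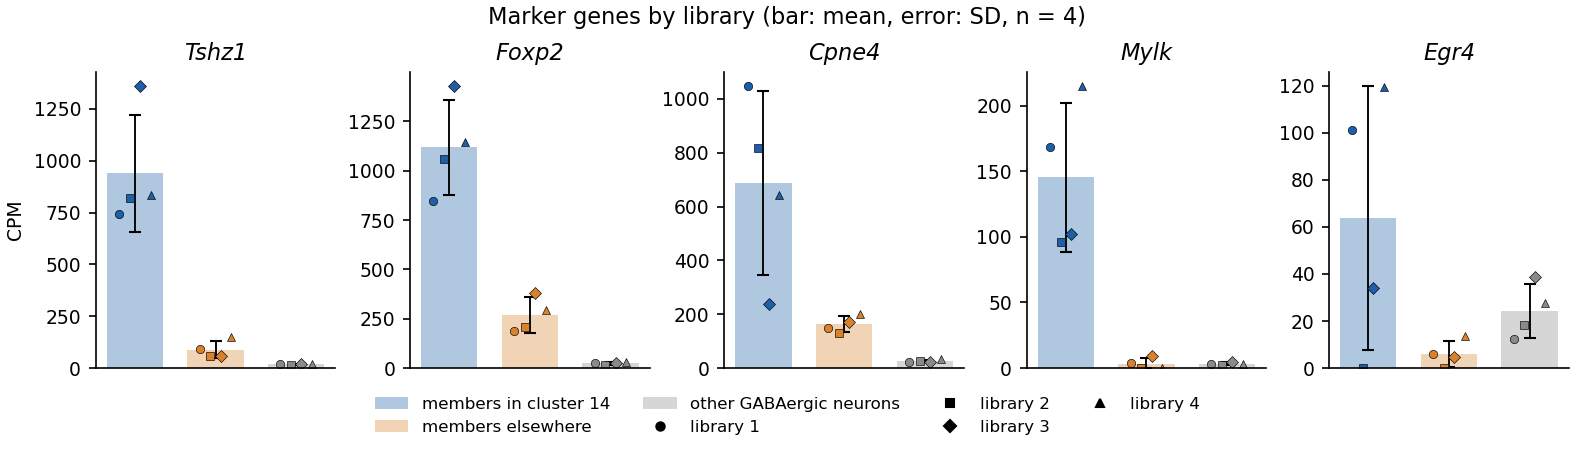
Level of the 5 marker genes in CPM (vertical) for members in cluster 14, members elsewhere and other GABAergic neurons; bars give the mean of 4 libraries, error bars the SD and symbols the libraries. Tshz1, Foxp2 and Mylk separate the members of cluster 14 from both other sets in every library, while Egr4 overlaps.

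The sequences around a listed start of 3 genes are shown because the members divide by them: Cpne4 and Mylk led cluster 14, and Cck led the cluster with the next most members. They are RefSeq's 250 bases before to 50 after a listed start (build GRCm38.p6), 5′ to 3′ on the strand of the gene, in lower case. The Cck window holds the gene start of GENCODE vM21. That annotation starts Cpne4 at chr9:104547286 and Mylk at chr16:34745210, upstream of their windows, which thus lie inside the genes. Of 9 genes looked up, 6 had an entry, and for Cpne4 the first of 2 is printed. Capitals mark matches on either strand to the forkhead core TGTTTAC or the MEIS core TGACAG, neither of which contains the other. The intervals are chr9:104569405-104569704 (+ strand) for Cpne4, chr16:34784700-34784999 (+ strand) for Mylk and chr9:121495645-121495944 (- strand) for Cck.
Cpne4: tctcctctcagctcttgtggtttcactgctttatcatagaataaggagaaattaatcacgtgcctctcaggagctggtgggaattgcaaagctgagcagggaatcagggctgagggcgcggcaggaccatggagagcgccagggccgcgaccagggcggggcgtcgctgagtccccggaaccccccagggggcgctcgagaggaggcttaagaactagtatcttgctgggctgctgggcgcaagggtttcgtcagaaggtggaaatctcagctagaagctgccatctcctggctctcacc
Mylk: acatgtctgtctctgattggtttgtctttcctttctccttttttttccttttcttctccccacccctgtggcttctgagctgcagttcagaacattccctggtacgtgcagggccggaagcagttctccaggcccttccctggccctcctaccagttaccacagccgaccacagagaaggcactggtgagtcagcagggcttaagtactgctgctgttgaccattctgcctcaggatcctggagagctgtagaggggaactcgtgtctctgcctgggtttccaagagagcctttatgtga
Cck: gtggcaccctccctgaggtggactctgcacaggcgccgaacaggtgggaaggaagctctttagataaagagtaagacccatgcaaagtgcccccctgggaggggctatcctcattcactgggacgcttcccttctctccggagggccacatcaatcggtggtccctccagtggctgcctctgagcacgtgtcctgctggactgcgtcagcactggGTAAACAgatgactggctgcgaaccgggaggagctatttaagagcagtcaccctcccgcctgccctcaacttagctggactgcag
The Cck window held 1 forkhead match, 35 bases before the start, and neither motif matched in the other 2 windows. Among all 32851 promoters in the table, 3.65% held the forkhead motif and 19.2% the MEIS motif. A match describes these letters and is no site of binding.

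Transcription factor and receptor genes differed in both directions between the members of cluster 14 and the other members, and the genes given here were chosen for the text after their values were seen. Meis2, a homeodomain factor of lateral ganglionic eminence derivatives, was at 1823, 2840.4, 2514 and 1742 CPM in libraries 1 to 4, against 214, 188, 239 and 511 CPM in the other members and 423 ± 47.5 CPM in other GABAergic neurons (SD, n = 4). Lypd1, which encodes a modulator of nicotinic receptors, was at 1958, 2888, 2718 and 2004 CPM, against 131, 123, 243 and 363 CPM in the other members. Erbb4, the neuregulin receptor gene, was at 979, 915, 1121 and 597 CPM against 157, 79.7, 176 and 108 CPM. For these 3 genes the levels in the cluster and in the other members did not overlap. Pbx3, a homeodomain partner of MEIS proteins, was at 438 ± 193 against 53.0 ± 11.3 CPM, Nfib at 479.9 ± 285 against 49.9 ± 28.8 CPM and Mef2c at 808 ± 247 against 97.3 ± 8.10 CPM (SD, n = 4). Bcl11b, a zinc finger factor of striatal projection neurons, was at 399.7 ± 91.8 against 86.8 ± 9.998 CPM. The dopamine D1 receptor gene, listed as Drd1a, was at 98.8 ± 28.1 against 21.6 ± 15.2 CPM, from 12 UMIs in the cluster. Other genes of lateral eminence and striatal neurons were lower in the cluster or near 0. Isl1 had no UMI in it and was at 43.0 ± 17.1 CPM in the other members (47 UMIs), and Zfhx3 had 1 UMI in it and was at 66.1 ± 14.0 CPM in the others (64 UMIs). Foxp1 was at 45.9 ± 32.0 against 72.8 ± 39.0 CPM (from 5 UMIs in the cluster) and Dlx1 at 113 ± 63.9 against 192 ± 37.0 CPM, with overlapping libraries for both. Ebf1, Adora2a and Drd2 had no UMI in the cluster and at most 4 outside.

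Peptide genes divided the members too, with enkephalin on one side and nociceptin and cholecystokinin on the other. Penk, which encodes the enkephalin precursor, was at 675, 1974, 1291 and 1861 CPM in the members of cluster 14 and at 394, 348, 356 and 349.5 CPM in the other members, while other GABAergic neurons had 599.9, 715, 602 and 954 CPM. Library 1 was the low one in the cluster. Pnoc had no UMI in the 69 members of the cluster and 244 in the other 164, so its pooled level was at least 9.72-fold lower in the cluster, against a floor of 3 UMIs over its cells. Cck had 1 UMI in the cluster and 517 outside, a pooled ratio of 0.0162 with an exact 95% counting interval of 0.000409 to 0.0906. Crh, of corticotropin-releasing hormone, and the kainate receptor gene Grik1 also had no UMI in the cluster, against 174 and 147 outside, at least 6.93-fold and 5.85-fold lower on the same floor. Sst, of somatostatin, had 2 UMIs in it and Gal, of galanin, 1, against 318 and 185. Oprl1 was at 75.9 ± 31.0 CPM in the cluster, from 9 UMIs, and at 75.2 ± 20.6 CPM in the other members, a difference smaller than the SD over libraries.

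**Figure D4:**
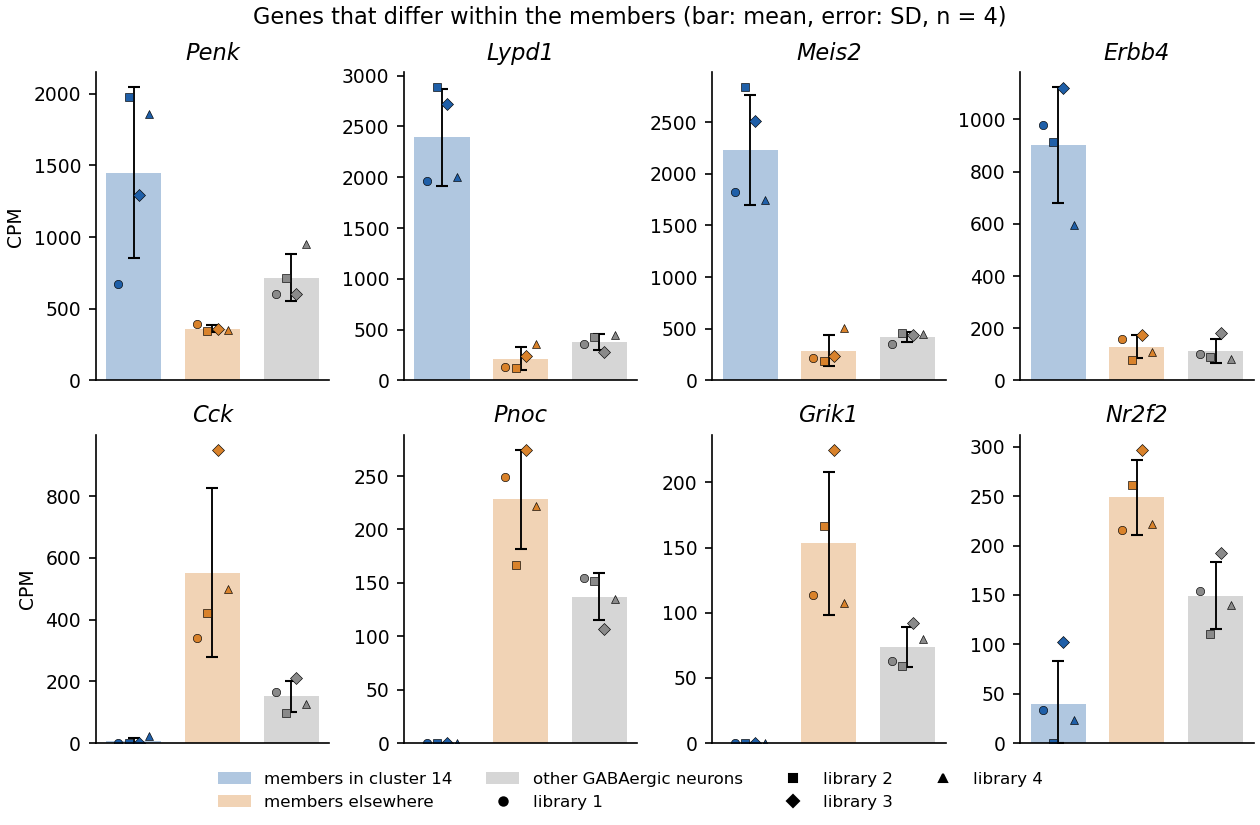
Level in CPM (vertical) of 8 genes in members of cluster 14, members elsewhere and other GABAergic neurons; bars give the mean of 4 libraries, error bars the SD (stopped at 0) and symbols the libraries. Penk, Lypd1, Meis2 and Erbb4 have their highest mean in cluster 14, and Cck, Pnoc, Grik1 and Nr2f2 in the members elsewhere.

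Abundant RNAs also differed between these members. Malat1, a nuclear long noncoding RNA, was at 17013, 17619.9, 23309.5 and 26725 CPM in the members of cluster 14 and 7684, 8604, 9971 and 13592 CPM in the others. Gnas, of a stimulatory G protein subunit, was at 944 ± 139.7 against 3568 ± 178 CPM, and Stmn2, of a neuronal microtubule regulator, at 307 ± 175 against 1281 ± 279.6 CPM (SD, n = 4). The part of RNA quality in the split was not tested. The GABAergic genes were present on both sides: Gad1 was at 802 ± 234 against 527 ± 65.7 CPM, Gad2 at 1232 ± 369.5 against 2054 ± 407 CPM and Slc32a1 at 446 ± 118 against 470.0 ± 32.1 CPM. The 69 cells held 10.7% of the members' UMIs, so sums over all members mostly show the other 164.

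Over those sums, members differed from the other 2050 GABAergic neurons in few genes. Among 9014 genes tested, without the rule genes, Mylk and Egr4, 83 passed the threshold of 0.05 on the adjusted p (0.921%), of which 41 were higher (0.455%) and 42 lower (0.466%) in members (edgeR quasi-likelihood test with library as a block, Benjamini-Hochberg adjustment). Of the 83, 73 moved the same way in all 4 libraries, and the median log2 fold change over all genes was 0.0057. The 12 largest rises were in Vill, Pgr15l, Cck, Dkk3, Zadh2, Kcnh5, Tmod1, Ntng1, Pex5l, Erbb4, Tpd52l1 and Tmem255a. The 12 largest falls were in Avp, Ebf1, Igfbp4, St18, Pou3f1, Npy, Sst, Crhbp, Strip2, Stk32a, Ramp1 and Ppp1r14c. The count of 83 was 11 with comparison cells matched on depth, 23 with DESeq2 and 5 with no library block, and it was 46 without library 2 and 47 without library 3. In the main comparison the exclusions of the rule held for members only. With them on the comparison cells too, the calls for Kcnh5, Pou3f1 and Ramp1 ended. Among the 24 genes, leaving out any 1 library ended no call for Cck, Pex5l, Erbb4, Tpd52l1, Avp, Igfbp4, Npy, Sst and Ramp1, and ended the call at least once for the other 8 rises and 7 falls: without library 1 for Vill, Pgr15l, Zadh2, Kcnh5, Ebf1, St18, Strip2 and Stk32a, without library 2 for Kcnh5, Tmod1, Ntng1, Stk32a and Ppp1r14c, without library 3 for Vill, Dkk3, Kcnh5, Tmod1, Tmem255a, Pou3f1, Crhbp, Strip2, Stk32a and Ppp1r14c, and without library 4 for Kcnh5, Tmod1, Ntng1, Stk32a and Ppp1r14c.

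**Figure D5:**
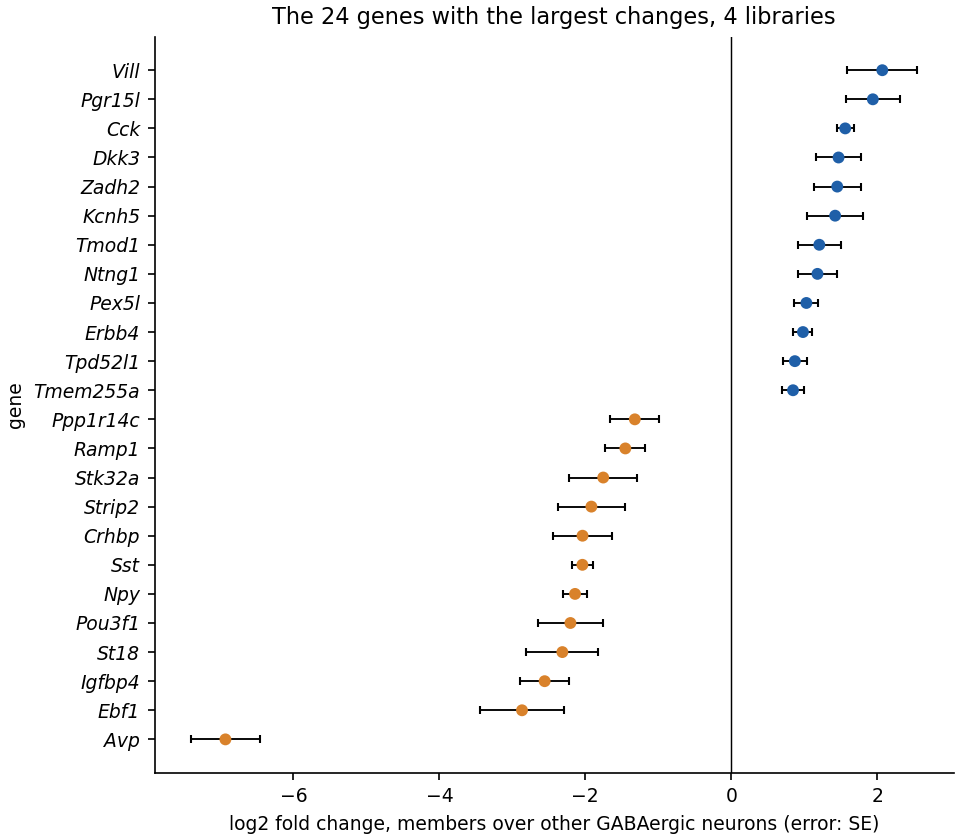
Log2 fold change of members over other GABAergic neurons (horizontal, with SE) for the 12 largest rises and 12 largest falls past the adjusted threshold and the same way in all 4 libraries. Avp, with 1 UMI in members, lies below the other falls at -6.93, and Vill is the highest of the rises at 2.07.

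Neuropeptide genes were among the largest falls and rises. Of 14 tested genes of the peptide list, Cck rose and Avp, Crh, Crhbp, Npy, Sst and Tac2 fell, with a list median of -0.75 on the log2 scale. Cck was at 322, 365, 839 and 393 CPM in members against 166, 99.0, 212 and 126 CPM in other GABAergic neurons, higher in 4 of 4 libraries with no overlap (log2 fold change 1.56 ± 0.12 SE, adjusted p = 2.43e-17, edgeR). Library 3 was the high one. The Cck UMIs came from 33 of the 233 members. When Cpne4 was not used to choose members the log2 fold change was 0.47 (adjusted p = 0.526, edgeR), and under a mitochondrial limit of 5% it was 0.81 (adjusted p = 0.334).

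Somatostatin and neuropeptide Y, which one class of interneurons shares, had lower levels in members in each library. Sst was at 473, 12.6, 59.7 and 252 CPM against 1016, 439, 439 and 1902 CPM (log2 fold change -2.04 ± 0.15 SE, adjusted p = 7.82e-18, edgeR). Npy was at 124, 6.30, 43.7 and 483 CPM against 768, 359.9, 353 and 982 CPM (log2 fold change -2.14 ± 0.16 SE, adjusted p = 1.57e-17, edgeR). In both genes the ranges of the 2 classes overlapped across libraries, though members were the lower class in 4 of 4. Avp, the vasopressin gene, had 1 UMI in 1 of the 233 members and 960 UMIs in 23 of the 2050 other neurons. The pooled ratio was 0.00721 with an exact 95% counting interval of 0.000182 to 0.0403. That interval leaves out the spread between cells, so with so few Avp cells it cannot tell whether members lack them. Crh fell by a log2 fold change of -0.95 ± 0.17 SE and was lower in 4 of 4 libraries. Tac2, of neurokinin B, changed by -1.54 ± 0.23 SE and was lower in 3 of 4, with library 3 at 278 CPM in members against 148 CPM. With each cell weighted equally the log2 ratios were -3.23 ± 1.89 for Sst and -3.42 ± 1.99 for Npy (SD, n = 4). They were -2.05 ± 1.75 for Crh and -2.39 ± 2.42 for Tac2 (SD, n = 4).

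The opioid genes moved in both directions, with 1 of 6 tested higher, 1 lower and a list median of 0.18. Pnoc was at 235, 145, 243 and 173 CPM in members against 155, 151, 107 and 135 CPM in other GABAergic neurons, higher in 3 of 4 libraries with overlap (log2 fold change 0.58 ± 0.13 SE, adjusted p = 0.00676, edgeR). The call ended without library 1 and without library 3. Its log2 fold change was -0.74 (adjusted p = 0.0655, edgeR) when Cpne4 was not used and -0.31 (adjusted p = 0.920) with a minimum of 3 UMIs, and -0.0341 with each cell weighted equally in place of sums. Penk was at 409.5, 561, 465 and 682 CPM against 599.9, 715, 602 and 954 CPM, lower in 4 of 4 libraries with overlap (log2 fold change -0.45 ± 0.08 SE, adjusted p = 0.000265, edgeR). With the same exclusions applied to the comparison cells its log2 fold change was 0.0789 (adjusted p = 0.937), and with each cell weighted equally it was -0.0220. Oprl1 was at 63.0, 101, 59.7 and 78.7 CPM against 49.2, 57.7, 59.7 and 74.8 CPM and did not pass (log2 fold change 0.30 ± 0.20 SE, adjusted p = 0.831, edgeR), nor did Pdyn, the dynorphin gene (log2 fold change -0.57 ± 0.28 SE, adjusted p = 0.626).

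Of 23 tested factors of the lateral ganglionic eminence and striatum, Pbx3 rose and Bcl11b, Ebf1, Isl1 and Zfhx3 fell, with a list median of -0.06. Pbx3 was at 74.1, 126, 95.4 and 110.1 CPM in members against 56.5, 63.6, 50.03 and 58.7 CPM, with no overlap (log2 fold change 0.74 ± 0.18 SE, adjusted p = 0.0208, edgeR), and its call ended without library 2, 3 or 4. With each cell weighted equally its log2 ratio was 1.48. Zfhx3, a homeodomain factor, was at 50.03, 56.7, 75.6 and 52.4 CPM against 100.2, 109, 155 and 171 CPM, lower in 4 of 4 libraries with no overlap (-1.14 ± 0.18 SE). Ebf1, a helix-loop-helix factor of striatal neurons of the direct pathway, had 4 UMIs in members (-2.87 ± 0.58 SE). Isl1, a LIM factor of the same neurons, changed by -1.05 ± 0.22 SE, and its call ended without library 2. Bcl11b was at 88.9, 139, 123 and 168 CPM against 153, 178, 248 and 255 CPM, lower in 4 of 4 libraries with overlap (-0.72 ± 0.14 SE), and its log2 fold change was -0.23 (adjusted p = 0.778, edgeR) with the same exclusions on both sides and -0.0228 with each cell weighted equally. Meis2 and Lypd1, abundant in cluster 14, did not pass in the summed members (0.24 ± 0.10 SE, adjusted p = 0.442, and 0.27 ± 0.12 SE, adjusted p = 0.490, edgeR). Of 9 tested genes of the caudal eminence list, Cck and Nr2f2, an orphan nuclear receptor (0.53 ± 0.12 SE, call ended without library 2 or 3, 0.0713 with each cell weighted equally), rose and none fell. None of 8 tested factors of the medial eminence passed in edgeR, with a list median of -0.32.

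Receptor and signalling genes gave few calls. Erbb4 was at 202, 189, 286 and 215 CPM in members against 101, 90.7, 182 and 80.9 CPM, higher in 4 of 4 libraries with no overlap (log2 fold change 0.98 ± 0.13 SE, adjusted p = 1.13e-07, edgeR). With comparison cells matched on depth its log2 fold change was 0.48 (adjusted p = 0.326), and with each cell weighted equally it was 1.58. Of 29 GABA and glutamate receptor genes tested, 1 passed: Grik1, at 107, 145, 199 and 83.9 CPM against 62.8, 58.9, 92.0 and 79.8 CPM (0.84 ± 0.16 SE), whose call ended without library 3 and whose log2 ratio was 0.37 with each cell weighted equally. Of 23 tested genes of a list of G protein-coupled receptors none passed in edgeR. Of 35 tested genes for G proteins, their regulators and cyclic nucleotide signalling, Gnai1 rose (0.33 ± 0.09 SE) and Gnas (-0.21 ± 0.06 SE), Pde1a (-0.47 ± 0.11 SE) and Rgs2 (-0.53 ± 0.11 SE) fell. Each of these 4 calls ended without at least 1 library, Gnai1 without 2, 3 or 4, Gnas without 1, 2 or 4, and Pde1a and Rgs2 without 1.

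Of 16 calcium-binding genes tested, the calcium sensors Ncald and Vsnl1 rose. Ncald was at 550.3, 554, 437 and 503 CPM against 419, 361, 371 and 339 CPM with no overlap (0.44 ± 0.09 SE), and Vsnl1 at 1169, 1065, 946 and 955 CPM against 892, 848, 693 and 880.4 CPM (0.33 ± 0.07 SE). Ncald's call ended without library 2 and Vsnl1's without library 1, 2 or 3. Of 18 striatal dopamine genes tested none rose, and Arpp21, of a cyclic AMP-regulated phosphoprotein, and Rgs4, a regulator of G protein signalling, fell (-0.75 ± 0.10 SE and -0.87 ± 0.16 SE, the second not without library 3). Arpp21 was higher in members, by 0.72 (adjusted p = 0.00458, edgeR), once the comparison cells had the same exclusions and matched depth, and its log2 ratio was -0.32 with each cell weighted equally.

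Of 31 potassium channel genes tested, 1 passed: Kcnh5, at 22.2, 18.9, 31.8 and 42.0 CPM in members against 8.57, 13.5, 13.7 and 7.20 CPM (log2 fold change 1.42 ± 0.39 SE, adjusted p = 0.0467, edgeR). Of its 31 member UMIs, 19 were in the 69 members of cluster 14, and its log2 ratio was 2.23 with each cell weighted equally. Of 27 guidance genes tested, Ntng1, a netrin-related membrane protein, rose (1.18 ± 0.27 SE) and Epha4, an ephrin receptor, fell (-0.87 ± 0.16 SE, not without library 3). Pcdh8, a protocadherin, was the called one of 20 cadherins (0.68 ± 0.18 SE, not without library 2, 3 or 4). Nnat, 1 of 10 genes of young neurons, fell (-0.28 ± 0.07 SE), and so did Pam, which amidates peptides, 1 of 11 genes of granule processing (-0.44 ± 0.11 SE, not without any 1 library). None of 28 tested calcium, sodium and HCN channel genes, 13 immediate early genes, 6 copines, 13 actomyosin genes, 5 sex hormone genes or 4 septal and hypothalamic factors passed in edgeR. Over all 9014 genes, 705 had an unadjusted p under 0.05.

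Among the other large rises, Pex5l, which encodes a partner of HCN channels, was at 100.1, 158, 115 and 173 CPM in members against 60.3, 67.2, 59.7 and 65.4 CPM, with no overlap (1.03 ± 0.17 SE). Vill, which encodes a villin-like protein, was at 16.7, 18.9, 27.8 and 21.0 CPM against 4.44, 5.89, 5.65 and 3.32 CPM (2.07 ± 0.48 SE). Pgr15l, which encodes an orphan receptor, was at 33.4, 44.1, 27.8 and 31.5 CPM against 7.93, 11.2, 8.88 and 7.76 CPM (1.94 ± 0.37 SE), and all of its member UMIs were outside cluster 14. Zadh2 was at 40.8, 31.5, 39.8 and 47.2 CPM against 14.9, 10.01, 21.0 and 11.6 CPM (1.45 ± 0.32 SE). Its annotated start lies 357 bases from that of the rule gene Tshz1 on the opposite strand, with no overlap between the 2 genes (GENCODE vM21). Mef2c (0.84 ± 0.14 SE, adjusted p = 7.07e-05) and Nfib (0.82 ± 0.20 SE, adjusted p = 0.0169) also passed in edgeR, and were named after their values were seen because they led cluster 14.

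Members were also compared with 218 Ppp1r1b and Crym neurons, which met the same filters with at least 2 UMIs of those 2 genes. From them the members, summed per library, differed widely, and 10.7% of the members' UMIs came from cluster 14. Of 4472 genes tested, 679 passed (15.2%), 316 higher (7.07%) and 363 lower (8.12%) in members (edgeR, library as a block). The count was 426 without library 1, 269 with DESeq2 and 314 with no library block. The 2 classes were chosen by opposite limits on Ppp1r1b and Crym, so genes that vary with those 2 can differ through the choice of cells. The part of that choice in the differences was not tested. Of 16 tested striatal dopamine genes, 14 fell and 1 rose, with a list median of -1.52 against -0.0020 for all genes. Arpp21 was at 300.2, 328, 310.2 and 566 CPM in members against 3697, 3021, 2715 and 3157 CPM (log2 fold change -3.15 ± 0.12 SE, adjusted p = 1.36e-20, edgeR). Drd1a was at 14.8, 18.9, 51.7 and 42.0 CPM against 111, 91.5, 109 and 78.7 CPM (-1.82 ± 0.33 SE). Of 15 tested lateral eminence factors 9 fell and 3 rose. Foxp1, a forkhead factor of striatal projection neurons, changed by -2.67 ± 0.21 SE, Bcl11b by -2.30 ± 0.15 SE and Meis2 by -0.93 ± 0.14 SE. With Arpp21, the largest falls were in Pou3f1, Ramp1, Ankrd63 and Akap5, between -3.58 and -2.76. In the members of cluster 14 alone, Arpp21 was at 1223 ± 306 CPM, Drd1a at 98.8 ± 28.1 CPM and Bcl11b at 399.7 ± 91.8 CPM. Foxp1 was at 45.9 ± 32.0 CPM there and Meis2 at 2230 ± 535 CPM (SD, n = 4). Those members were not compared with the 218 cells by a test.

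Gal, Grik1, Cck, Dlx1 and Gpx3 were the 5 largest rises over the Ppp1r1b and Crym neurons, and of 9 peptide genes tested 3 rose and 1 fell. Gal was at 126, 195, 59.7 and 378 CPM in members, from 186 UMIs, and had none in the 218 cells, at least 46.0-fold higher in pooled level against a floor of 3 UMIs over the class. Grik1 had 147 UMIs against 2, a 54.5-fold ratio with an exact 95% counting interval of 14.8 to 454. Cck was higher by 4.29 ± 0.25 SE, Gpx3, of a glutathione peroxidase, by 3.46 ± 0.36 SE and Dlx1, a homeodomain factor of GABAergic neurons, by 4.17 ± 0.35 SE. All 4 opioid genes tested passed: Pnoc (1.57 ± 0.30 SE) and Oprl1 (0.95 ± 0.31 SE) rose, and Penk (-2.06 ± 0.11 SE) and Pdyn (-2.58 ± 0.29 SE) fell. Erbb4 was higher by 2.30 ± 0.25 SE. The Ppp1r1b and Crym neurons had Foxp2 at 124 ± 28.0 CPM and Tshz1 at 75.8 ± 21.0 CPM (SD, n = 4), between the members and the other GABAergic neurons as a whole. Their choice set no limit on Tshz1, Foxp2 or Cpne4. Cells that the exclusion for Ppp1r1b and Crym removed from the members are thus among them.

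Prkcd neurons numbered 40 under the same filters, with at least 10 cells in 2 libraries, so no test was made. In them Foxp2 had no UMI, Tshz1 had 1 and Cpne4 had 10, with all Cpne4 UMIs in library 4. Cck had no UMI there, and Penk was at 646 ± 751 CPM (SD, n = 4).

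Within the class, 101 members with a Tshz1 UMI were compared with 132 without. Those without it had entered through Foxp2 or Cpne4, so the rule itself makes the 2 sets differ in these genes. Their median depths were 6608, 2006, 2786.5 and 2084 UMIs with Tshz1 in libraries 1 to 4 and 5480.5, 3664, 5936 and 2811.5 UMIs without, and the part of depth in the differences was not tested. Of 2666 genes tested, 3 passed (0.113%), all higher with Tshz1 and among them Lypd1 and Malat1 (edgeR, library as a block), with 176 at an unadjusted p under 0.05 and 1 called by DESeq2. The count of 3 was 7 without library 1, 1 without library 3 and 9 without library 4. Lypd1 was at 281, 939.6, 1313 and 1035 CPM with Tshz1 against 193, 307, 262 and 473 CPM without, higher in 4 of 4 libraries with overlap (log2 fold change 1.41 ± 0.21 SE, adjusted p = 0.000199, edgeR), and its call ended without library 3. Malat1 changed by 0.49 ± 0.10 SE, and its call ended without library 1, 3 or 4. Erbb4 (1.12 ± 0.26 SE, adjusted p = 0.0726) and Meis2 (0.91 ± 0.21 SE, adjusted p = 0.0726) did not pass in edgeR. The share in cluster 14 was 23.5, 64.3, 65 and 54.5% with Tshz1 in libraries 1 to 4 and 10.4, 22.7, 3.33 and 31.2% without.

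Markers of glial cell types were low in members. All 10 oligodendrocyte markers had UMIs, and their summed level was between 195 and 1101 CPM in members, 279 and 1610 CPM in other GABAergic neurons and 139149 and 165036 CPM in oligodendrocyte barcodes. In members of cluster 14 it was between 193 and 578 CPM, with Cnp, Mog and Opalin at 0. The high level in oligodendrocyte barcodes follows from their choice by these same 10 markers. Of 10 astrocyte markers, 9 had UMIs in members, with Gfap at 0 and a summed level between 202 and 361 CPM, against 274 and 322 CPM in other GABAergic neurons. Of 9 microglial markers, 3 had UMIs in members, between 11.1 and 31.5 CPM, with Csf1r and P2ry12 at 0, and none had one in cluster 14. The glutamatergic list was at 278 ± 62.9 CPM in members and 258 ± 48.9 CPM in other GABAergic neurons (SD, n = 4). Of its 8 genes, 5 had UMIs in members, and Slc17a7, Tbr1 and Neurod6 were at 0. The list was at 416 ± 103 CPM in members of cluster 14 and 262 ± 77.5 CPM in the other members (SD, n = 4).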

How the data were processed

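The authors deposited 1 table of UMI counts per library, genes by cell barcodes. The submitters' processing notes name bcl2fastq 2.18.0.12, STAR 2.4.2a and Picard 2.2.4, with mm10 and GRCm38, and the use of strand in counting is not given in the sources used here. For each class, the counts of its cells were added up within a library, and edgeR 4.0.16 (TMM, filterByExpr, quasi-likelihood test, Benjamini-Hochberg adjustment, threshold 0.05) was run on every gene past its filter, blocking on library. The block pairs 2 sums of cells from the same library, so the pairing comes from the design. Clustering used scanpy 1.11.5 (2000 variable genes, 30 components, Leiden resolution 1) without the 15 rule genes. Doublets were called with Scrublet and kept. Libraries held 2640399 to 5652342 UMIs. The members and the gene lists were chosen with earlier results of these data known.

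Named genes were the 12 largest changes in each direction against other GABAergic neurons and the 5 largest against each other class, past the threshold, the same way in all libraries and with at least 20 UMIs in the higher class, together with called genes of the lists and the opioid genes. A class entered with at least 10 cells per library in at least 3 libraries. The fits were tested on simulated data: against other GABAergic neurons, 61% of 2-fold and 90% of 4-fold changes were recovered over 9031 genes. Alternatives covered the filters, the comparison cells, the block, DESeq2 1.42.0 and each library left out, and 2 were added after seeing the data. GENCODE vM21 matched 93.5% of gene names. A called gene of the comparison by Tshz1 is not reported here.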

Additional observations from a re-analysis of the deposited data

Results flagged for a closer look

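In 4 of 62 sets of 4 library values for named genes, 1 library stood far from the others by Dixon's test, where chance gives about 1 in 20, or 3.1 sets. Arpp21 in members was at 566 CPM in library 4 and between 300.2 and 328 CPM in the others. Cck in members was at 839 CPM in library 3 and between 322 and 393 CPM in the others. Ebf1 in members was at 11.9 CPM in library 3 and between 0 and 1.85 CPM in the others. Avp in members was at 1.85 CPM in library 1, from 1 UMI, and at 0 in the others.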

How the results depend on the processing

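The count of genes changed against other GABAergic neurons, 83, was 11 (4 higher, 7 lower) with comparison cells matched on depth, 23 with DESeq2, 35 with a mitochondrial limit of 5%, 42 when Cpne4 was not used and 44 with a minimum of 3 UMIs of the 3 genes. It was 11 (8 higher, 3 lower) with the same exclusions and matched depth, an alternative chosen after seeing the data, and between 46 and 75 with 1 library left out. With no low-count filter it was 82, 30 higher and 52 lower, with a median over all genes of -0.12. With no replicate block, which drops the pairing by library, the 3 counts were 5, 314 and 1. Against Ppp1r1b and Crym neurons the count of 679 was 269 with DESeq2 and between 426 and 637 with 1 library left out. For members with against without Tshz1 the count of 3 was 5 with comparison cells nearest in depth, which left their medians above those with Tshz1 in libraries 2 to 4 (3131.5 against 2006, 3787.5 against 2786.5 and 2811.5 against 2084 UMIs), 1 with DESeq2, 29 with no low-count filter and between 1 and 9 with 1 library left out. The mean share of members was 5.71% with a minimum of 3 UMIs.

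Among 46 genes named against other GABAergic neurons, 826 tested values under alternatives were computed: 569 kept direction and side of the threshold, 247 kept direction and lost the call, and 10 changed sign. With the same exclusions Arpp21 was at 0.39 and Penk at 0.0789; with matched depth as well, Arpp21 was at 0.72, Bcl11b at 0.14 and Oprl1 at -0.10. With matched depth alone Oprl1 was at -0.10. With Cpne4 not used Nr2f2 was at -0.0964, Penk at 0.0394 and Pnoc at -0.74. Pnoc was at -0.31 with a minimum of 3 UMIs. With each cell weighted equally, also chosen after seeing the data and without a test, Pnoc was at -0.0341 and changed sign. Of the 46 genes, 15 moved by more than 1.5-fold under that weighting, 4 of them toward 0 (Avp, Bcl11b, Pnoc and Ramp1) and 11 away from it. The cause of these changes was not tested.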
